A study of Arabidopsis thaliana with 22 samples.

Results

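The regions described here are acetylated histone H3 peaks whose summits lay in the pericentromeric part of each *Arabidopsis thaliana* chromosome. A peak was a member if its summit fell within 11.5 to 17.7 Mb of chromosome 1, 1.1 to 7.2 Mb of chromosome 2, 10.3 to 17.3 Mb of chromosome 3, 1.5 to 6.3 Mb of chromosome 4 or 9.0 to 16 Mb of chromosome 5 in the TAIR10 assembly. These windows cover 31.1 Mb, or 26.1% of the 5 nuclear chromosomes, and the remaining 88.0 Mb are called the arms. Of 105488 peaks in 10 deposited peak lists, 10077 had their summits in the windows and 95411 in the arms.

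The study asked how the gaseous hormone ethylene and its signalling protein EIN2 affect histone acetylation, by chromatin immunoprecipitation and sequencing (ChIP-seq) of whole etiolated seedlings. Seedlings were grown in darkness for 3 days and then kept for 4 h in ethylene at 10 p.p.m. in hydrocarbon-free air, or in hydrocarbon-free air alone. They were of the mutant *ein2-5*, which carries a loss-of-function allele of *EIN2*, or of the wild-type accession Col-0. The lists cover H3K14Ac and H3K23Ac in *ein2-5* with ethylene and in air, and the same marks and H3K9Ac in Col-0 with ethylene and in air. Each list was called on reads pooled from 2 libraries, except the Col-0 H3K14Ac lists, which rest on 1 library each. There is therefore 1 list per condition, no replicate check is possible, and every interval below covers counting error only. The labelled material, whole seedlings, cannot be checked by markers in peak lists.

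The lists differ in the depth of the controls against which peaks were called, which are titled IgG controls and for which the labels give protein G beads in place of an antibody. These held 4333059 tags behind the *ein2-5* ethylene lists, 13683768 behind the *ein2-5* air lists, 10479732 behind the 3 Col-0 ethylene lists and 2438541 behind the 3 Col-0 air lists. The ChIP side held 16981322 to 37674460 tags per list and was scaled down to the control by the peak caller. The match of the shallowest control to its library is in doubt. The paper lists more uniquely mapped reads for the Col-0 air IgG library than for the Col-0 ethylene one, whereas here the Col-0 air control held fewer tags. Peak numbers, shares in the windows and overlaps between treatments and genotypes are given as deposited and at a common control depth, while counts of joined regions and of genes are as deposited only. For the second setting, the fragment pileup and the background at every summit were reduced to what a control of 2438541 tags would give, and a peak stayed in its list if its recomputed Poisson P did not exceed 0.01.

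Pericentromeres flank the centromeric satellite arrays. In *Arabidopsis* they are rich in transposable elements and relics of them, are packed as heterochromatin with DNA methylation and H3K9 dimethylation, and hold islands of ordinary genes. Acetylation of lysines 9, 14 and 23 in the tail of histone H3 is placed by acetyltransferases and removed by deacetylases, and in plants it marks mainly the first nucleosomes of genes that are transcribed. EIN2 is a membrane protein whose carboxy-terminal part moves to the nucleus when ethylene is perceived.

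The annotation of the windows had the features of pericentromeres. They held 3383 protein-coding genes (12.3% of the total), at 109 per Mb against 273 per Mb in the arms. They also held 3777 of the annotated pseudogenes (78.0%), a class that includes relics of transposable elements, at 121 per Mb against 12.1 per Mb in the arms. Repeats masked in the reference made up 29.0% of the windows and 19.4% of the arms, while GC content was 36.0% in both. Genes of the windows were shorter, with a median of 1714 bp against 2120 bp in the arms.

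The following 6 stretches of 201 bases, centred on peak summits, show what kinds of sequence carried acetylation in the windows. They come from the RefSeq TAIR10.1 assembly, whose nuclear chromosomes have the lengths of TAIR10, and are written 5′ to 3′ on the strand of the gene. Capitals mark annotated coding sequence. The first is the region with the highest mean rank over all 10 lists, the second a retroelement relic, the next pair the last acetylated genes before long stretches without peaks, then a gene with peaks in the 3 Col-0 ethylene lists only, and last the strongest *ein2-5* H3K23Ac air peak outside annotated genes and the 1 kb before them.
*AT1G43245*, chr1:16310501-16310701, minus strand: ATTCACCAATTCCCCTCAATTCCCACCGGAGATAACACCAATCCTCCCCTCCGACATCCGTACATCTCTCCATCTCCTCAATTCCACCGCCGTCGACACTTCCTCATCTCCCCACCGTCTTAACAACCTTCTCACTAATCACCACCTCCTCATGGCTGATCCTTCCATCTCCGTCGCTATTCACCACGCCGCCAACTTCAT
*SADHU1-1*, chr2:4006571-4006771, minus strand: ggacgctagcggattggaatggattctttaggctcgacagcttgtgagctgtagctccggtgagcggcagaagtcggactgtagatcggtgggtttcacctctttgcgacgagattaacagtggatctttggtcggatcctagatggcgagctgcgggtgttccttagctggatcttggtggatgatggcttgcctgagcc
*AT2G07360*, chr2:3056827-3057027, minus strand: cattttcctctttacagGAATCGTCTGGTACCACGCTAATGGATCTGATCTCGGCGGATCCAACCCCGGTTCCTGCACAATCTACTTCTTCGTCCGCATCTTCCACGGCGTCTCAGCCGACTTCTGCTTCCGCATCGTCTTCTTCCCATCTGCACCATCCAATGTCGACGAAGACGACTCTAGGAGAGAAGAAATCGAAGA
*AT5G32470*, chr5:12088347-12088547, minus strand: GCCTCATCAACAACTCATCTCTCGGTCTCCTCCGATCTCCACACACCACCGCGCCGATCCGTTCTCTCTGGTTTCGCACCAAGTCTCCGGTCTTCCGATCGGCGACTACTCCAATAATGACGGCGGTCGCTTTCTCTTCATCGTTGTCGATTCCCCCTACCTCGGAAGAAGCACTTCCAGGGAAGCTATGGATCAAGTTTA
*RAP2.9*, chr4:4074196-4074396, minus strand: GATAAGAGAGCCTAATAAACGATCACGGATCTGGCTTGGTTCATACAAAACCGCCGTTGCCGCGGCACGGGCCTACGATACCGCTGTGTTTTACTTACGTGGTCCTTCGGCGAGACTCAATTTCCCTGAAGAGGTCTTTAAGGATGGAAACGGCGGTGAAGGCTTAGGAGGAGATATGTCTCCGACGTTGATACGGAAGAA
Intergenic, chr1:13603424-13603624, plus strand: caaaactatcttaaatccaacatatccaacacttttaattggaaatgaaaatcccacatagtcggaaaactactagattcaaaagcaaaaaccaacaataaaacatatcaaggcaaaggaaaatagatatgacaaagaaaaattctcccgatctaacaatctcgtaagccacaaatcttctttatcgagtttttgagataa

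In *AT1G43245*, *AT5G32470* and *RAP2.9* all 201 bases were coding, and in *AT2G07360* 184 were. The GC content of the 4 genic stretches ranged between 50.7 and 54.2%, that of the *SADHU1-1* stretch was 54.7%, and that of the intergenic stretch was 30.8%. The first 4 summits lay under peaks of all 10 lists, the *RAP2.9* summit under peaks of 3 lists and the intergenic summit under peaks of 5 lists.

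Acetylated peaks were sparser in the windows than in the arms in all 10 lists. In *ein2-5* with ethylene, the windows held 690 H3K14Ac peaks, 22.2 per Mb against 82.3 per Mb in the arms, and 1003 H3K23Ac peaks, 32.3 per Mb against 113 per Mb in the arms. In *ein2-5* in air they held 1041 H3K14Ac peaks, 33.5 per Mb against 94.5 per Mb in the arms, and 1396 H3K23Ac peaks, 44.9 per Mb against 123 per Mb in the arms. The arms were thus denser for both marks and both treatments of the mutant.

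In Col-0 with ethylene, the windows held 1577 H3K9Ac peaks, or 50.7 per Mb, against 187 per Mb in the arms. With the same treatment they held 1523 H3K14Ac peaks, 49.0 per Mb against 157 per Mb in the arms, and 1305 H3K23Ac peaks, 42.0 per Mb against 132 per Mb in the arms. In Col-0 in air, the windows held 968 H3K9Ac peaks (31.1 per Mb, against 111 in the arms), 229 H3K14Ac peaks (7.36 per Mb, against 31.6) and 345 H3K23Ac peaks (11.1 per Mb, against 53.0). The density in the arms was 2.74 to 4.78 times that in the windows over the 10 lists. The windows were sparser on every chromosome, with a window to arm ratio between 0.180 and 0.446 over the 50 combinations of list and chromosome.

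The gap was narrower per gene. Per 100 protein-coding genes, the windows held 46.6 H3K9Ac peaks in Col-0 with ethylene, against 68.3 in the arms. The ratio of windows to arms per gene was 0.526 in the Col-0 H3K23Ac air list, the lowest, and 0.918 in the *ein2-5* H3K23Ac air list, the highest, and it was below 1 in all 10. Peaks covered between 0.229 and 3.05% of the window bases, against 0.988 to 11.8% of the arms.

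**Figure D1:**
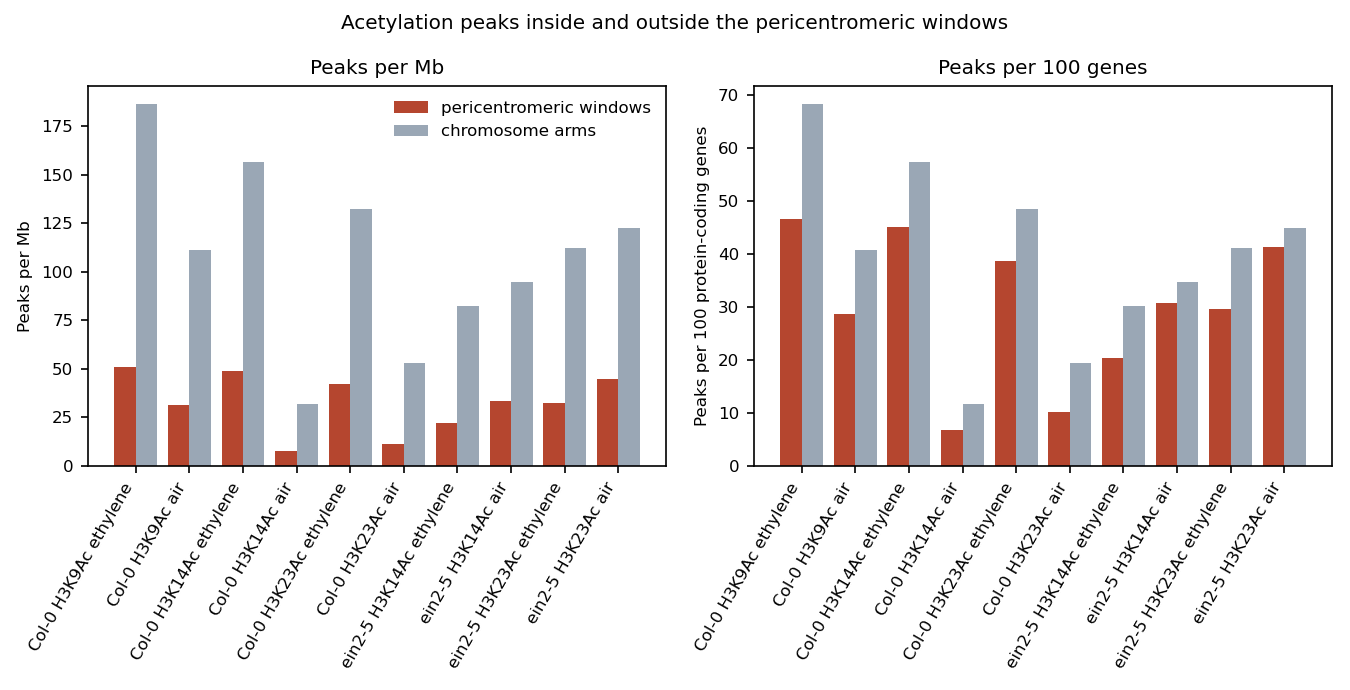
Peaks per Mb (left) and per 100 protein-coding genes (right) in the pericentromeric windows (red) and the chromosome arms (grey) for the 10 lists, each called on pooled reads and drawn without error bars. The windows lie below the arms in every list, at 7.36 to 50.7 peaks per Mb, and the gap is narrower per gene than per Mb.

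The share of a list's peaks that fell in the windows was between 6.88 and 11.4%, against 26.1% of the genome's length and 12.3% of its protein-coding genes. In *ein2-5*, H3K14Ac had 8.70% of its peaks in the windows with ethylene (95% Wilson interval 8.10 to 9.34%) and 11.1% in air (10.5 to 11.8%), and H3K23Ac had 9.19% with ethylene (8.67 to 9.75%) and 11.4% in air (10.9 to 12%). In Col-0 the order of the treatments was the other way round for these marks. The share for H3K14Ac was 9.94% with ethylene (9.48 to 10.4%) and 7.61% in air (6.71 to 8.61%), and for H3K23Ac it was 10.1% with ethylene (9.57 to 10.6%) and 6.88% in air (6.22 to 7.62%). H3K9Ac had 8.76% of its peaks there with ethylene (8.36 to 9.18%) and 8.98% in air (8.46 to 9.53%), intervals that overlap.

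For H3K14Ac and H3K23Ac these shares followed the depth of the control, lowest in the 2 lists with the shallowest control and highest in the 2 with the deepest. Scaled to the common control depth, the shares in the deepest lists were lower, at 9.62% for *ein2-5* H3K14Ac in air and 9.06% for *ein2-5* H3K23Ac in air, and all 10 shares lay between 6.88 and 9.62%. The Col-0 H3K14Ac and H3K23Ac air lists, whose values the scaling leaves as they are, still had the lowest shares.

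Within the windows, both peaks and genes thinned out towards the middle. The outermost 1 Mb at each end held 190 protein-coding genes per Mb and 14.5 to 102.6 peaks per Mb, depending on the list. Between 1 and 2 Mb from an end there were 98.4 genes and 5.70 to 43.5 peaks per Mb, and further in there were 45.3 genes and 2.43 to 14.5 peaks per Mb. Per 100 genes, the Col-0 H3K9Ac ethylene list had 54.1 peaks in the outermost 1 Mb, 40.8 in the next and 29.8 further in. The *ein2-5* H3K23Ac air list had 44.9, 40.2 and 29.6 peaks per 100 genes in the same zones. All 10 lists had their fewest peaks per gene in the innermost zone, whose 503 genes include 94 in a mitochondrial insertion on chromosome 2 that held 0 peaks. Without these genes, a comparison chosen after the data were seen, the Col-0 H3K9Ac ethylene list had 36.7 and the *ein2-5* H3K23Ac air list 36.4 peaks per 100 genes there. The innermost value was then still the lowest in 9 lists, while in the Col-0 H3K14Ac air list (27 peaks) it was 6.60, against 5.79 in the next zone. Over 61 bins of 0.5 Mb, the number of peaks and the number of genes had a Pearson correlation between 0.727 and 0.888 in the single lists. This is a description only, since neighbouring bins are not independent and all lists share the same genes.

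The longest stretches of the windows with no peak in any list measured 1300 kb on chromosome 1, 613 kb on chromosome 2, 461 kb on chromosome 5, 362 kb on chromosome 4 and 312 kb on chromosome 3. On 4 of the chromosomes these stretches held few genes. That on chromosome 1 (chr1:14307249-15606850) held 11 protein-coding genes and 134 pseudogenes, and 12.6% of it is unresolved sequence. The stretches on chromosomes 5, 4 and 3 (chr5:12088631-12549240, chr4:2994353-3356817 and chr3:13530013-13842266) held 5, 4 and 0 protein-coding genes.

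Chromosome 2 was different. Its peak-free stretch (chr2:3057122-3669925) held 108 protein-coding genes, 94 of them in a block of 271 kb (chr2:3239038-3509765) spanned by matches to the mitochondrial genome at 90% identity or more. This is the copy of mitochondrial DNA known to be inserted into this chromosome in Col-0. The 10 lists held 0 peaks in the block. The part of this likeness in the absence of peaks was not tested. No window or arm summit in any list lay in sequence that matched an organelle genome.

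The stretches without peaks ended at ordinary genes as well as in or near annotated pseudogenes. To the left of the chromosome 2 stretch, *AT2G07360*, which encodes a protein with an SH3 domain, a fold that binds proline-rich peptides, had a peak in all 10 lists, with its strongest summit 287 bp into the gene. To the left of the chromosome 5 stretch, *AT5G32470*, annotated as heme oxygenase-like, also had a peak in all 10 lists, with its strongest summit 259 bp into the gene and fold enrichment between 2.09 and 3.71. On the right of the same stretch, the chloride channel gene *AT5G33280* had a peak in 4 lists. The peroxidase gene *AT3G32980* on chromosome 3 had a peak in 5 lists, and *SKS6* on chromosome 1, a relative of the multicopper oxidases, had H3K9Ac peaks only. The remaining edges were the uncharacterized gene *AT4G06534*, with a peak in 8 lists, and peaks in or near the pseudogenes *AT1G38140*, *AT2G09800*, *AT3G33103* and *AT4G05635*, with a peak in 1, 7, 1 and 3 lists. The strongest summits nearest to *AT1G38140* and *AT4G05635* lay outside them, 4166 and 1252 bp away.

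**Figure D2:**
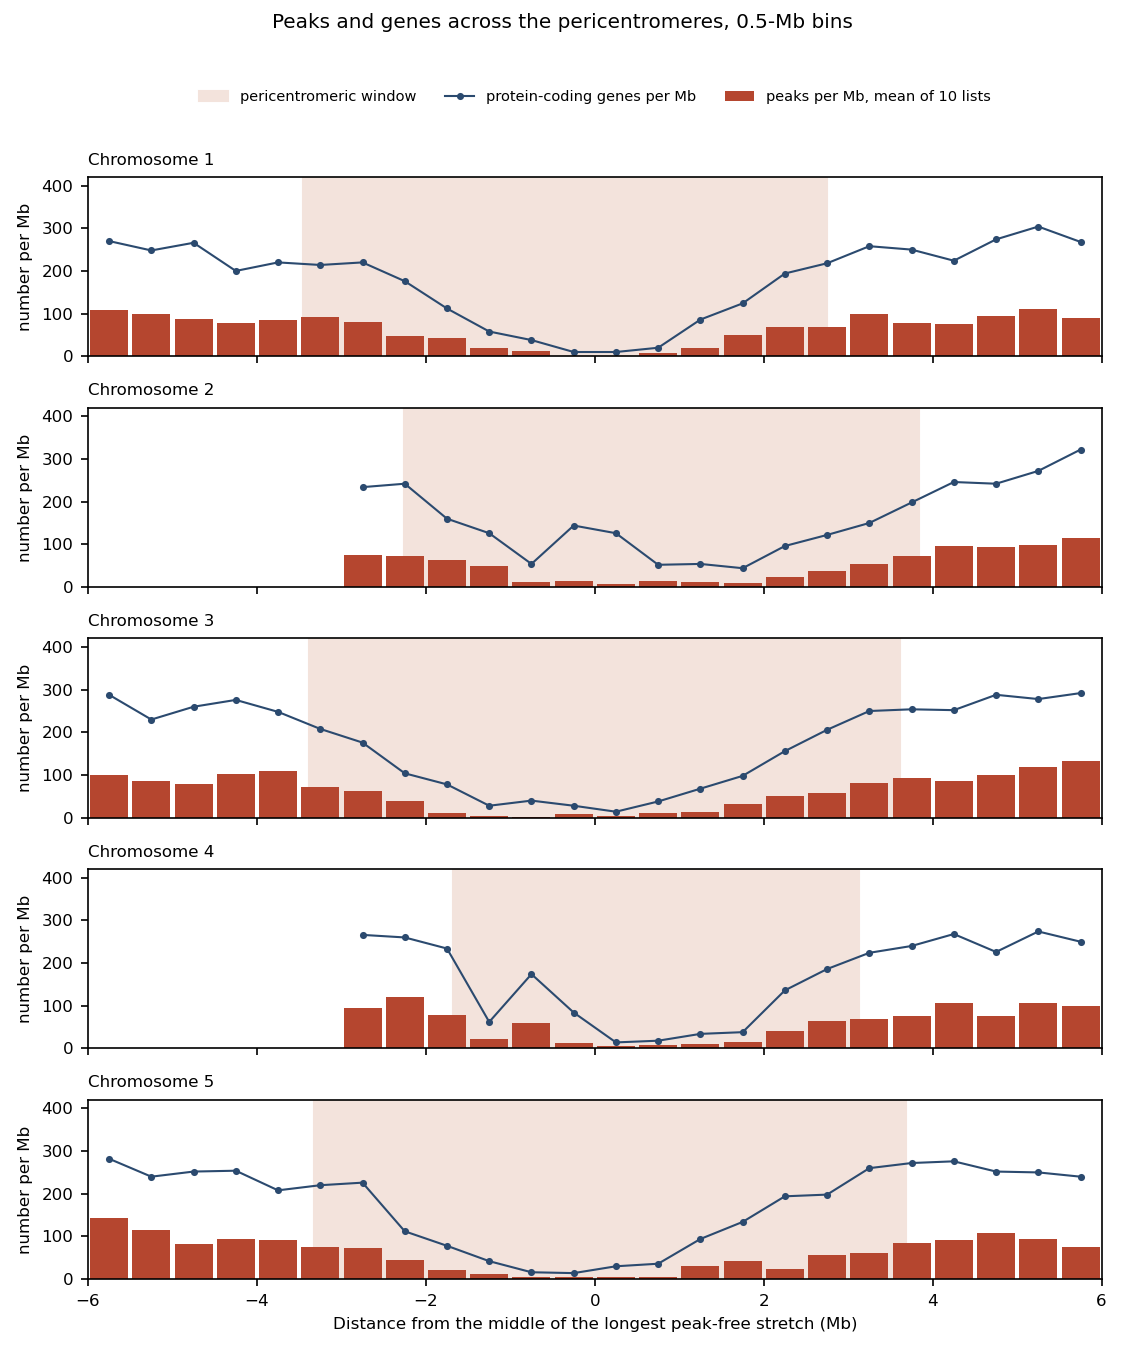
Peaks per Mb as the mean of the 10 lists (red bars) and protein-coding genes per Mb (blue line) in bins of 0.5 Mb, against the distance in Mb from the middle of the longest peak-free stretch of each chromosome; pink shading marks the window. Peaks and genes both thin out towards the middle, with exceptions. On chromosome 2 the bins on either side of the middle hold 144 and 126 genes per Mb but 13.2 and 6.2 peaks per Mb. On chromosome 4 a bin left of the middle holds 174 genes and 58.8 peaks per Mb. On chromosome 5 the bin 2 to 2.5 Mb right of the middle holds 194 genes but 24.8 peaks per Mb, fewer peaks than the next bin inwards (134 genes and 42.4 peaks per Mb).

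Peaks of the windows were about as wide and as strongly enriched as those of the arms. In *ein2-5* with ethylene the median width was 317 bp in the windows and 324 bp in the arms for H3K14Ac, and 346 bp in the windows and 366 bp in the arms for H3K23Ac. In *ein2-5* in air the H3K14Ac medians were 289 bp in the windows and 304 bp in the arms, and the H3K23Ac medians 322 bp in the windows and 345 bp in the arms. In Col-0, H3K9Ac peaks were the widest, with 531 bp in the windows and 554 bp in the arms with ethylene, and 416 bp in the windows and 410 bp in the arms in air. The Col-0 H3K14Ac and H3K23Ac medians ran between 281 and 328 bp in the windows and between 280 and 350 bp in the arms. The window median was lower in 8 of 10 lists, by at most 23 bp.

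Broad peaks were rarer in the windows. Peaks over 1 kb made up 9.45% of the H3K9Ac ethylene peaks in the windows against 12.7% in the arms, and their share was lower in the windows in all 10 lists. Median fold enrichment lay between 1.85 and 2.74 in the windows and between 1.85 and 2.64 in the arms. Within a list the medians of windows and arms differed by at most 0.0986, while the highest fold enrichment of a list was lower in the windows in all 10. The recovered background at the summit, in fragments, was lower in the windows in 9 lists, for example 28.2 against 31.6 in the *ein2-5* H3K23Ac air list, and within 0.01 of the arms in the Col-0 H3K23Ac air list. In 2.61 to 9.35% of window peaks, against 0.710 to 2.08% of arm peaks, it stood at the lowest value in the list, where the control had no local excess.

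Inside genes, the marks sat close to the same place in the windows as in the arms, downstream of the gene start. Of summits inside protein-coding genes, the median distance from the annotated start was 340 bp in the windows and 366 bp in the arms for Col-0 H3K9Ac with ethylene, 482 and 494 bp for H3K14Ac, and 367 and 409 bp for H3K23Ac. Over the 10 lists the medians ranged between 317 and 482 bp in the windows and between 358 and 494 bp in the arms, and the window median was lower in all 10. In every list and in both places, the bin of 200 to 400 bp after the start held the most summits. It held 22.97 H3K9Ac summits per 100 window genes with ethylene against 32.8 per 100 arm genes, and 14.2 against 19.8 for H3K14Ac. Col-0 H3K14Ac with ethylene spread furthest into the gene, with 70.3% of its window summits within 1 kb of the start, against 90.2% for H3K9Ac.

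**Figure D3:**
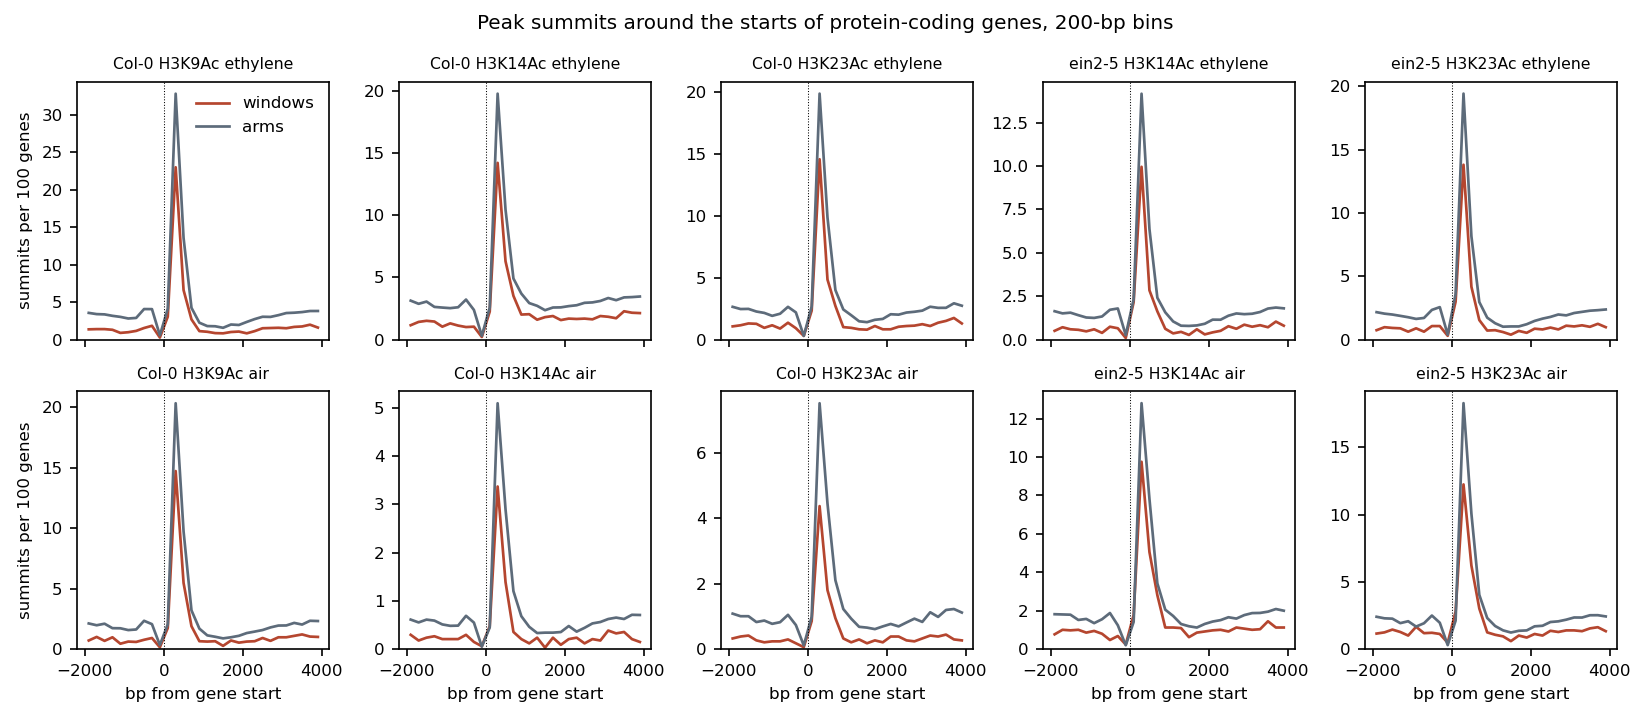
Peak summits per 100 protein-coding genes in bins of 200 bp around annotated gene starts, for genes of the windows (red) and of the arms (grey), with ethylene lists above air lists and a separate vertical scale in each panel. Both curves have their maximum 200 to 400 bp after the start in all 10 lists, and the window maximum is lower than the arm maximum, for example 12.2 against 18.3 per 100 genes in the ein2-5 H3K23Ac air list.

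Most window summits were in protein-coding genes, although these make up only 21.8% of the window bases. The share ranged between 70.8 and 91.7% in the windows, against 92.3 to 98.8% in the arms, where genes make up 65.5% of the bases. Pseudogenes, which make up 27.4% of the window bases, held 3.00 to 5.68% of the summits there, against 0.367 to 0.884% in the arms, where they make up 2.06% of the bases. Non-coding RNA genes, which make up 1.23% of the window bases and 1.33% of the arm bases, held 1.75 to 3.99% of the window summits. In the arms they held 0.359 to 1.65%.

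A further 752 window summits, over all lists, lay outside protein-coding genes, pseudogenes, non-coding RNA genes and the 1 kb before a protein-coding gene, and are called intergenic here. Such sequence made up 41.5% of the window bases and 15.9% of the arm bases. This intergenic share differed widely between lists. It was 15.8% in the *ein2-5* H3K23Ac air list (14.0 to 17.8%), against 3.02% in the arms, and 12.9% in the Col-0 H3K23Ac ethylene list (11.2 to 14.8%), against 3.05% in the arms. It was 6.48% for *ein2-5* H3K23Ac with ethylene, and for *ein2-5* H3K14Ac it was 1.45% with ethylene and 9.41% in air. In Col-0 with ethylene it was 6.02% for H3K9Ac and 4.399% for H3K14Ac. In the 3 Col-0 air lists it was 2.38% for H3K9Ac, 0.437% (1 peak) for H3K14Ac and 1.16% (4 peaks) for H3K23Ac.

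The intergenic window peaks had a lower median −log10 P than window peaks in genes in 8 of 10 lists, all but the Col-0 H3K23Ac air and *ein2-5* H3K14Ac ethylene lists, which hold 4 and 10 of them. In the *ein2-5* H3K23Ac air list their median −log10 P was 3.82, against 5.30 for window peaks in genes, and 29.0% of them stood at the lowest background of the list, against 3.54% of those in genes. In the Col-0 H3K23Ac ethylene list the medians were 3.78 and 5.45, and the shares at the lowest background 39.3 and 3.44%, intergenic peaks first. Under the common control depth, a comparison chosen after the data were seen, 13 of 300 window peaks of the *ein2-5* H3K23Ac air list (4.33%) and 25 of 520 of the Col-0 H3K23Ac ethylene list (4.81%) were intergenic. At this setting the intergenic shares in the arms were 0.465 and 0.636%, in the same order, so the windows stayed above the arms. Over the summit and 150 bases on each side, the intergenic peaks of these lists had a median GC of 30.9 and 31.9%, the mutant first. Inside genes, the median GC was 42.5% in the windows and 45.2% in the arms for *ein2-5* H3K23Ac in air, and it was lower in the windows in all 10 lists.

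**Figure D4:**
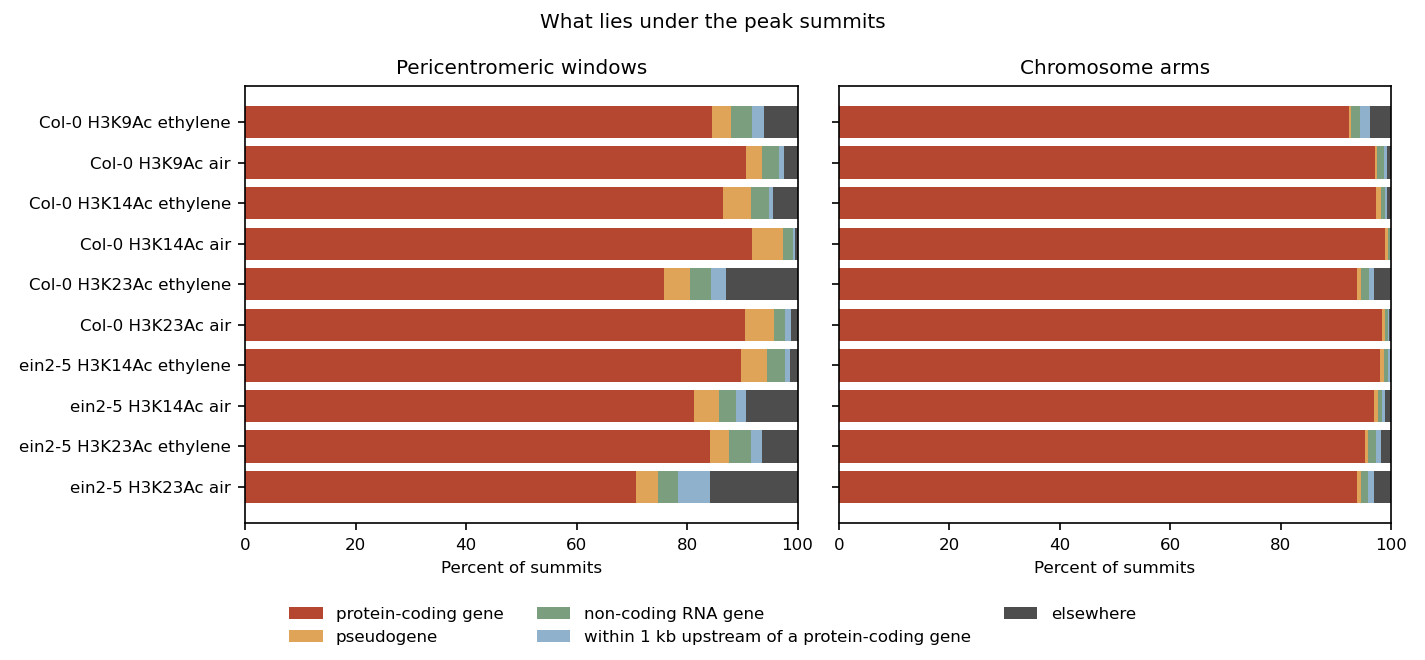
Share of peak summits by the annotation under them in the windows (left) and the arms (right), as percent of each list, with ethylene above air for each genotype and mark. Protein-coding genes hold 70.8 to 91.7% of window summits and 92.3 to 98.8% of arm summits, and the dark intergenic part reaches 15.8% in the windows and 3.88% in the arms.

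Ethylene and air were then compared within the windows. In Col-0, the ethylene lists were longer for all 3 marks. H3K9Ac had 1577 window peaks with ethylene and 968 in air, a ratio of 1.63, against 1.67 in the arms, so that the ratio in the windows was 0.973 times that in the arms (95% interval 0.895 to 1.06). H3K14Ac had 1523 and 229, a ratio of 6.65 against 4.96 in the arms, which differ by 1.34 times (1.16 to 1.55). H3K23Ac had 1305 and 345, a ratio of 3.78 against 2.50 in the arms, which differ by 1.52 times (1.34 to 1.72). The counting intervals of H3K14Ac and H3K23Ac leave out 1, and that of H3K9Ac does not. These intervals take the 2 lists of a pair as independent counts. Yet 99.8% of H3K9Ac, 93.9% of H3K14Ac and 90.1% of H3K23Ac air window peaks overlapped an ethylene peak. With 1 list per condition they cannot show a difference beyond the spread between libraries. All 3 ratios rest on the Col-0 air lists, whose control is the one in doubt.

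With the common control depth, the Col-0 ratios were smaller, and in the windows H3K14Ac still had the highest. H3K9Ac had a ratio of 1.32 in the windows and 1.33 in the arms. H3K14Ac had 634 window peaks with ethylene and 229 in air, a ratio of 2.77 against 2.27 in the arms (1.22 times, 1.04 to 1.43). H3K23Ac had 520 and 345, a ratio of 1.51 against 1.15 in the arms (1.32 times, 1.14 to 1.52).

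In *ein2-5*, the deposited ethylene lists were the shorter ones. H3K14Ac had 690 window peaks with ethylene and 1041 in air, a ratio of 0.663 against 0.870 in the arms (0.762 times, 0.688 to 0.843). H3K23Ac had 1003 and 1396, a ratio of 0.718 against 0.916 in the arms (0.784 times, 0.720 to 0.855). At the common control depth both directions turned. H3K14Ac then had 560 and 215 window peaks, a ratio of 2.60 against 2.90 in the arms, and H3K23Ac had 824 and 300, a ratio of 2.75 against 2.73 in the arms. The ratio in the windows was then 0.897 (0.760 to 1.06) and 1.004 (0.874 to 1.15) times that in the arms.

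**Figure D5:**
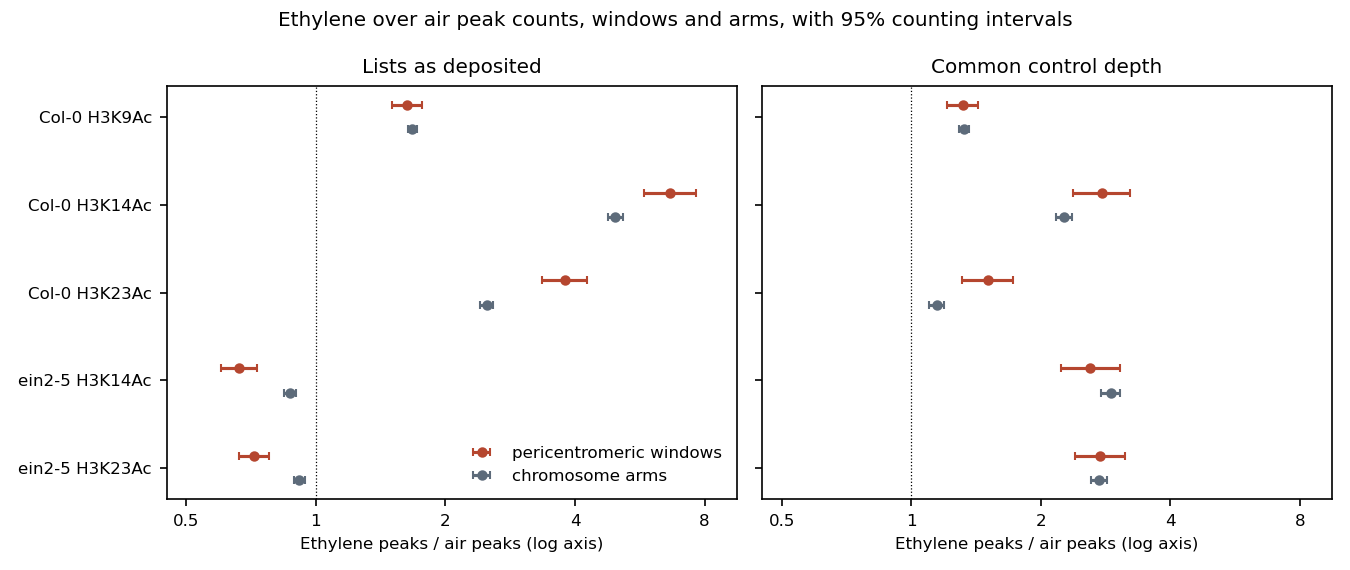
Number of ethylene peaks divided by number of air peaks (log axis) in the windows (red) and the arms (grey) for the 5 pairs of lists, as deposited (left) and at the common control depth (right); bars are 95% intervals that cover counting error only. For Col-0 H3K14Ac and H3K23Ac the windows lie to the right of the arms in both panels, and the ein2-5 ratios lie below 1 on the left and above 2 on the right.

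The lists of a pair were also compared by overlap of at least 1 bp. Of the Col-0 ethylene window peaks, 40.8% of H3K9Ac, 85.9% of H3K14Ac and 76.6% of H3K23Ac had no overlapping air peak, against 42.7, 81.8 and 66.7% of all peaks in those lists. The H3K9Ac share was thus near that of the whole list, and the H3K23Ac share was above it. In reverse, 2 of 968 H3K9Ac air peaks in the windows, 14 of 229 H3K14Ac air peaks (6.11%) and 34 of 345 H3K23Ac air peaks (9.86%) had no overlapping ethylene peak, where the whole lists had 0.204, 5.81 and 11.7%. Scaled to the common control depth, 29.3% of H3K9Ac, 73.2% of H3K14Ac and 58.3% of H3K23Ac ethylene window peaks had no air partner, against 30.9, 67.9 and 47.9% in the arms. The air window peaks then had no ethylene partner in 3.31, 25.3 and 35.7% for the same marks, against 3.91, 25.1 and 38.0% in the arms. As deposited, window peaks with a partner were the wider ones. Col-0 H3K14Ac ethylene peaks with an air partner had a median width of 456 bp, and those without one 297 bp.

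In *ein2-5*, 31.3% of H3K14Ac and 26.5% of H3K23Ac ethylene window peaks had no overlapping air peak, against 33.5 and 25.5% of the whole lists. Of the air window peaks, 54.5% of H3K14Ac and 46.9% of H3K23Ac had no overlapping ethylene peak, against 43.7 and 33.7% of the whole lists. At the common control depth the second pair of shares was 35.3 and 25.0% in the windows, against 26.8 and 20.1% in the arms, while the first pair was 74.8 and 72.5% in the windows, against 74.7 and 70.2% in the arms.

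The 2 genotypes were compared for the 2 marks measured in both. With ethylene, *ein2-5* had 0.453 times the H3K14Ac window peaks of Col-0, against 0.525 times in the arms (0.863 times, 0.785 to 0.948), and 0.769 times the H3K23Ac window peaks, against 0.851 times in the arms (0.904 times, 0.829 to 0.985). In air, *ein2-5* had 4.55 times the H3K14Ac window peaks of Col-0, against 2.99 times in the arms (1.52 times, 1.31 to 1.76), and 4.05 times the H3K23Ac window peaks, against 2.32 times in the arms (1.75 times, 1.54 to 1.97). At the common control depth, the *ein2-5* to Col-0 ratios in the windows were 0.883 for H3K14Ac and 1.58 for H3K23Ac with ethylene, and 0.939 and 0.870 in air. Relative to the arms, the air ratios were still higher in the windows, by 1.29 (1.06 to 1.57) and 1.35 times (1.15 to 1.58), and the ethylene ratios were 0.949 (0.842 to 1.07) and 1.03 times (0.918 to 1.15). Both air comparisons rest on the Col-0 air lists, whose control is the one in doubt.

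By overlap, 15.9% of the *ein2-5* H3K14Ac and 25.1% of the H3K23Ac window peaks with ethylene had no Col-0 partner, against 16 and 23.3% of the whole lists. In air the shares were 82.6 and 79.3%, against 74.2 and 66.5% of the whole lists. Of the Col-0 window peaks, 61.8% of H3K14Ac and 42.5% of H3K23Ac had no *ein2-5* partner with ethylene, against 56.9 and 36.0% of the whole lists. In air, 48 of 229 H3K14Ac peaks and 55 of 345 H3K23Ac peaks (15.9%) had none, against 19.1 and 16.8% of the whole lists. Under the common control depth, the *ein2-5* window peaks with ethylene had no Col-0 partner in 38.0% for H3K14Ac and 56.4% for H3K23Ac, against 39.1 and 53.0% in the arms, and those in air in 60.9 and 50.7%, against 50.2 and 39.4% in the arms. The Col-0 window peaks then had no *ein2-5* partner in 45.7 and 31.3% with ethylene, against 44.0 and 28.9% in the arms, and in 62.9 and 55.9% in air, against 62.8 and 59.1% in the arms. The air shares of *ein2-5* H3K14Ac and H3K23Ac were thus the ones furthest above the arms at both settings.

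With ethylene in Col-0, H3K14Ac and H3K23Ac peaks lacked an H3K9Ac partner more often in the windows than in the arms. Of H3K14Ac window peaks, 35.1% had no overlapping H3K9Ac peak (32.8 to 37.6%), against 23.3% in the arms and 24.5% of the whole list. For H3K23Ac the share was 21.6% (19.5 to 23.9%), against 9.64% in the arms and 10.8% of the whole list. At the common control depth the same shares were 9.78% in the windows against 6.07% in the arms for H3K14Ac, and 8.08 against 4.09% for H3K23Ac. The H3K9Ac window peaks did not show this difference, since 41.2% of them had no H3K14Ac partner and 38.3% no H3K23Ac partner, against 40.2 and 39.5% in the arms. In air, 7.42% of H3K14Ac (4.69 to 11.6%) and 13.3% of H3K23Ac window peaks (10.1 to 17.3%) had no H3K9Ac partner, against 9.23 and 19% of the whole lists. The H3K9Ac window peaks in air had no H3K14Ac partner in 78.2% and no H3K23Ac partner in 69.7%, against 74.9 and 62.7% in the arms.

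When overlapping peaks of all 10 lists were joined, 2792 separate regions lay in the windows and took up 4.53% of their length. Of these, 1065 (38.1%, 36.4 to 40.0%) had a peak in 1 list only, against 28.8% of the regions of the arms, and 127 (4.55%, 3.84 to 5.39%) had a peak in all 10, against 7.11%. All 3 marks were found in 36.2% of window regions and 47.8% of arm regions. Regions with H3K23Ac alone made up 15.1% in the windows and 5.32% in the arms, those with H3K14Ac alone 20.5 and 14.5%, and those with H3K9Ac alone 9.63 and 14.3%. Regions seen in *ein2-5* lists only made up 17.7% in the windows and 7.35% in the arms. Those seen in Col-0 lists only made up 34.0 and 35.8%. H3K9Ac was not measured in *ein2-5*. Regions seen in *ein2-5* lists only could therefore not count under all 3 marks or under H3K9Ac alone. They could count under H3K14Ac or H3K23Ac alone, so the shares by mark also depend on which marks each genotype was measured for. All region shares are as deposited and depend on control depth too. At the common depth, 20.7% of H3K14Ac and 21.5% of H3K23Ac *ein2-5* air window peaks stayed, against 24.3 and 27.8% in the arms. With ethylene 81.2 and 82.2% stayed, against 81.1 and 83.1% in the arms. Whether the region shares hold at that depth was not tested.

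The 10 window regions with peaks in all 10 lists and the highest mean percentile, the rank of a region's −log10 P within each list averaged over lists, were all at genes. *AT1G43245* encodes a protein with a SET domain, the catalytic fold of most histone lysine methyltransferases. Its region on chromosome 1 had a mean percentile of 97.4. In *ein2-5* its fold enrichment was 3.19 with ethylene and 2.48 in air for H3K14Ac, and 3.37 with ethylene and 2.65 in air for H3K23Ac. In Col-0 it was 3.98 with ethylene and 3.92 in air for H3K9Ac, 3.60 and 2.70 for H3K14Ac, and 2.88 and 2.95 for H3K23Ac. Fold enrichment depends on control depth and is not compared between lists.

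The others, by rank, were *AT5G26960*, a kelch repeat protein, with the widest region at 1259 bp, the protein kinase gene *AT5G26110*, the glycine-rich protein gene *AT3G29075*, *PEX11A*, which acts in the multiplication of peroxisomes, the uncharacterized *AT4G04925* and *AT3G44430*, the release factor gene *AT1G33330*, *OTP51*, which is needed for splicing of a chloroplast transcript, and *SYP41*, a syntaxin of the trans-Golgi network. Their mean percentiles ran between 89.8 and 92.7. Their strongest summits lay between 196 and 1077 bp downstream of the gene start.

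The strongest single peaks of the lists were partly at other loci. The highest −log10 P in the windows, 50.2 for Col-0 H3K9Ac with ethylene, was at *UMAMIT41*, of a family of amino acid transporters. The same mark in air had 5.43 there, and fold enrichment was 5.96 with ethylene and 2.76 in air. The air list had the shallower control, so neither measure is compared between these lists. The region had a peak in 7 lists and none in the *ein2-5* H3K14Ac air list and the Col-0 H3K14Ac and H3K23Ac air lists. The highest H3K9Ac value in Col-0 in air, 13.6, was at *AT3G46845*, and the highest H3K14Ac value in Col-0 in air, 8.87, at *AT1G35430*, both uncharacterized. The antisense RNA gene *AT3G29644* held the strongest peak of both *ein2-5* ethylene lists, with −log10 P of 11.6 for H3K14Ac and 12.9 for H3K23Ac, and since ChIP-seq has no strand the peak cannot be told from its partner *AT3G29642*. For *ein2-5* in air the strongest peaks were at the uncharacterized *AT4G04925* for H3K14Ac, at 23.1, and *AT3G28335* for H3K23Ac, at 32.0.

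One of these loci was a retroelement relic. *SADHU1-1*, a member of the non-autonomous Sadhu retroposons and annotated as a pseudogene, carried the strongest H3K23Ac window peak in Col-0 with ethylene, with −log10 P of 23.6 and fold enrichment of 3.39. In air its Col-0 H3K23Ac peak had −log10 P of 5.19 and fold enrichment of 2.50. In *ein2-5* its H3K23Ac peak had −log10 P of 6.76 with ethylene and 17.5 in air. Within each genotype the higher score was in the list with the deeper control, and these scores are not compared between lists. *SADHU1-1* had peaks in all 10 lists, between 647 and 869 bp wide. Among 3777 pseudogenes of the windows, 123 (3.26%) were overlapped by a peak in at least 1 list and 9 in all 10.

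With ethylene alone in Col-0, 33 window regions (1.18%) had peaks of all 3 marks and no peak in the other 7 lists, against 1.61% of regions in the arms. The 5 with the highest mean rank were at *AT5G27460*, a tetratricopeptide repeat protein gene, *NAD-ME1*, which encodes a mitochondrial malic enzyme, *RAP2.9*, of the AP2/ERF family of transcription factors, *AT3G43960*, a cysteine proteinase gene, and *NRPB3*, a subunit of RNA polymerase II. At *RAP2.9* the fold enrichment was 2.48 for H3K9Ac, 2.45 for H3K14Ac and 2.58 for H3K23Ac. In the other direction, 2 window regions had peaks in all 4 *ein2-5* lists and in no Col-0 list (0.0716%), against 18 regions in the arms (0.0824%). One was in *AIR3*, a subtilisin-like protease gene, 4360 bp from the gene start, with fold enrichment of 2.49 with ethylene and 2.81 in air for H3K14Ac and 2.29 and 3.02 for H3K23Ac. The second was in the cupin gene *AT5G26700*. The lists of the 2 genotypes, and of the 2 treatments within each genotype, used different controls, so all of these are descriptions of list membership.

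Of the 3383 protein-coding genes of the windows, 1602 (47.4%) were overlapped by a peak in at least 1 list, against 67.2% in the arms, and 123 (3.64%) in all 10 lists, against 6.67%. In single lists the share ran between 6.27% for Col-0 H3K14Ac in air and 37.7% for Col-0 H3K9Ac with ethylene, against 11.3 and 59.6% in the arms. Within 2 kb of any peak there were 2216 window genes (65.5%), and 1167 (34.5%) had none, against 11.8% in the arms. Overlapped window genes were longer, with a median of 2308 bp against 1113 bp for those with no peak. Among genes of 2 to 3 kb, 65.5% of 716 in the windows and 77.2% of 6714 in the arms were overlapped.

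By annotated product, ribosomal protein, translation factor and histone genes had the largest shares with a peak. Of 37 ribosomal protein genes in the windows, 29 (78.4%) were overlapped in at least 1 list, against 90.2% in the arms, with 27 in the Col-0 H3K9Ac ethylene list. The same was true of 8 of 10 translation factor genes, against 80.2% in the arms, and 5 of 5 histone genes, against 65.2%. Among protein kinases 83 of 138 (60.1%, against 72.8% in the arms), among transporters 36 of 56 (64.3%, against 71.2%) and among disease resistance genes, which encode immune receptors, 14 of 21 (66.7%, against 61.3%) were overlapped.

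Other families had smaller shares. Of 107 F-box genes, whose products select substrates for ubiquitination, 28 (26.2%, against 28.2% in the arms) were overlapped. Of 53 defensin-like genes, which encode small secreted peptides, 8 were (15.1%, against 21.8%). Of 20 cytochrome P450 genes, 6 were (30.0%, against 63.6%), of 154 transcription factor genes 67 (43.5%, against 67.6%), of 791 genes for hypothetical proteins 228 (28.8%, against 54.1%) and of 32 transposon-related genes 2 (6.25%, against 32.5%). The share was lower in the windows in 12 of the 14 groups, all but disease resistance and histone genes, which is also the direction of all protein-coding genes. Among these 12, translation factor genes were nearly level, at 80.0 against 80.2%. The remaining groups were ubiquitin and proteasome genes, with 21 of 39 (53.8%, against 66.2% in the arms), and pentatricopeptide repeat genes, with 12 of 21 (57.1%, against 72.2%).

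Of 34 genes of ethylene synthesis and signalling, 2 lay in the windows, which hold 12.3% of all protein-coding genes. *NAC6*, a transcription factor that promotes leaf senescence and a target of the ethylene regulator EIN3, is at chr5:15858398-15859911 on the minus strand. In *ein2-5* it had 0 peaks within 2 kb in all 4 lists. In these lists 28.3 to 43.8% of all window genes had a peak within 2 kb. In Col-0 with ethylene, the strongest peak in the gene had fold enrichment of 3.37 for H3K9Ac, 2.19 for H3K14Ac and 2.33 for H3K23Ac. In Col-0 in air, H3K9Ac had a peak of fold enrichment 3.02, and H3K14Ac and H3K23Ac had 0 peaks within 2 kb. Of all window genes, 10.9% (H3K14Ac) and 15.3% (H3K23Ac) had a peak that near in these Col-0 air lists, against 47.0 and 40.9% with ethylene. *ACS11*, an enzyme gene of ethylene synthesis, is at chr4:4886962-4889224 on the plus strand. In *ein2-5* in air it had 1 peak of H3K14Ac inside the gene, at fold enrichment 1.74, and 1 of H3K23Ac upstream of it, at 1.71. Both *ein2-5* ethylene lists and the 6 Col-0 lists had 0 peaks within 2 kb of *ACS11*. The lists of the 2 treatments and of the 2 genotypes used controls of different depth, and that of the Col-0 air lists is in doubt. Peaks at *NAC6* and *ACS11* are therefore described and not compared between lists.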

How the data were processed

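ChIP-seq peak lists of whole etiolated seedlings were analysed, 10 in all, with no unassigned columns (0). The authors aligned 51-bp single-end reads to TAIR10 with Bowtie2 2.1.0, used SAMtools to take out duplicate reads, and ran MACS2 (2.1.0.20150603, P of 0.01, 200-bp fragments) on the merged replicates of each condition. Per the file headers, the larger ChIP library was scaled down to its IgG control. The deposited signal is the fragment pileup at the summit, the deposited −log10 P is from a Poisson test against the local background, and the deposited fold enrichment is (pileup + 1) over (background + 1). The background was recovered from these values. The headers say that q was not calculated although a −log10 q column is filled, which was used as q.

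Peaks were assigned to windows by summit and lists compared by overlap of at least 1 bp, in Python 3.11.15 with pandas 2.3.3 and numpy 2.4.6. Shares have 95% Wilson intervals, and ratios of ratios have log-scale intervals from Poisson counts. Genes and sequences came from RefSeq TAIR10.1, with an annotation newer than that used by the authors. Organelle matches were found with blastn 2.17.0 (at least 90% identity over 100 bp). Regions were named if they held the highest −log10 P of a list, the highest mean percentiles among regions in all 10 lists, the edges of the longest peak-free stretches, peaks in the 3 Col-0 ethylene lists only, or peaks in all 4 *ein2-5* lists and no Col-0 list, and ethylene genes were named if in a window. The windows, lists of genes and comparisons were chosen with earlier results of these data known. Overlap and window assignment were tested on simulated data with 0 mismatches.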

Additional observations from a re-analysis of the deposited data

Results flagged for a closer look

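The number of ethylene peaks over the number of air peaks in the windows lay on opposite sides of 1 in the genotypes. For H3K14Ac it was 0.663 in *ein2-5* and 6.65 in Col-0, and for H3K23Ac it was 0.718 in *ein2-5* and 3.78 in Col-0. With 1 list per condition the difference between genotypes was not tested. When scaled to the common control depth, all of these ratios were above 1, at 2.60 in *ein2-5* and 2.77 in Col-0 for H3K14Ac, and at 2.75 in *ein2-5* and 1.51 in Col-0 for H3K23Ac.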

How the results depend on the processing

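No paired analysis was possible because each list was called on pooled replicate libraries, and no replicate could be left out. With q under 0.05, with fold enrichment of at least 2, and with peaks merged within 200 bp, all 19 main values (10 shares in the windows and 9 ratios of ratios) kept their direction and moved by less than their intervals. Scaled to the common control depth, the shares were 9.14% for Col-0 H3K14Ac and 8.86% for Col-0 H3K23Ac with ethylene, and 9.62% for *ein2-5* H3K14Ac and 9.06% for *ein2-5* H3K23Ac in air. The window over arm ratios of ethylene to air became 1.32 for Col-0 H3K23Ac and 0.897 for *ein2-5* H3K14Ac, and those of *ein2-5* to Col-0 became 0.949 for H3K14Ac with ethylene, 1.29 for H3K14Ac in air and 1.35 for H3K23Ac in air. Directions turned for *ein2-5* H3K23Ac ethylene to air (1.004) and for H3K23Ac *ein2-5* to Col-0 with ethylene (1.03). Counted in base pairs, the shares were 8.34, 9.46 and 9.39% for Col-0 H3K9Ac, H3K14Ac and H3K23Ac with ethylene and 10.6% for *ein2-5* H3K23Ac in air. In windows shortened by 1 Mb at each end, which hold fewer peaks by construction, the *ein2-5* shares were 3.44% with ethylene and 4.65% in air for H3K14Ac, and 3.61% with ethylene and 4.797% in air for H3K23Ac. The Col-0 shares were 3.25 and 3.59% for H3K9Ac, 4.14 and 2.93% for H3K14Ac, and 4.22 and 2.69% for H3K23Ac, ethylene before air. Of the shares of peaks without a partner or outside genes, 22 of 30 moved past their intervals. Peaks per 100 genes of the innermost zone did so in 7 of 10 lists without the mitochondrial insertion. The insertion held 0 peaks, so leaving out its genes could only raise these values.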

Other observations

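In the windows, 2 regions had peaks in all 6 Col-0 lists and in no *ein2-5* list (0.0716%, against 22 regions or 0.101% in the arms), and were named after their values were seen. They lay in *AT1G33590*, a leucine-rich repeat protein gene, with H3K9Ac fold enrichment of 3.04 with ethylene and 4.26 in air, and in *AT4G03820*, a gene for a putative transmembrane protein, with 2.93 with ethylene and 3.83 in air.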
